A study of Mus musculus with 23 samples.

Results

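Macrophages and neutrophils leave a trace in tumor RNA through genes that the other cells of a tumor seldom use. The genes described here are 39 such markers, taken by name from a given list, 25 of macrophages and monocytes and 14 of neutrophil granulocytes. Of the 39, 35 carried values in the deposited table, 23 macrophage and 12 granulocyte genes, and all 35 reached 0.5 CPM (counts set to the same library total, with TMM factors) in at least 4 of the 23 libraries. CD68, MRC1, S100A9 and NGP were not analysed here. The 35 stand among 12322 gene profiles that passed the same minimum, of 15881 with counts. The table names mouse genes by human symbols. LYZ and CD300C were each carried by a pair of profiles, of which the higher was used, so the mouse gene behind either name is uncertain, and FCGR1A shares its profile with the name FCGR1B.

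The libraries came from IL6Myc transgenic mice, a model of multiple myeloma in mice with an intact immune system, and from wild-type Balb/c mice. From 8 untreated IL6Myc mice, 7 mesenteric lymph node (MLN) tumors and 7 spleen tumors were sequenced. Mice 1610, 1611 and 1613 to 1616 gave both, while mouse 1609 gave no spleen tumor and mouse 1612 no MLN tumor. The controls were splenic B cells of wild-type mice, 5 libraries of activated cells, kept for 16 hours with 1 µg/ml of the bacterial product lipopolysaccharide (LPS), and 4 libraries of quiescent, untreated cells. Before RNA extraction B cells were enriched from every tissue, tumors included, with magnetic beads that bind the other cells, so the genes described here are those of cells that the selection is meant to remove. Neither the promoters of the transgenes nor the ages of the mice are given in the labels. Nothing says that each control library is a separate animal, so the spread between control libraries may be technical alone. A p-value against controls may therefore rest in part on technical spread.

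Macrophages are tissue phagocytes that depend on the growth factor CSF1. In the spleen, red pulp macrophages take up aged red blood cells and return their iron to the blood, and other macrophages there clear dying cells and make complement C1q. Neutrophils arise in the bone marrow through stages that each fill a different kind of granule. Primary granule proteins such as myeloperoxidase are made by promyelocytes, secondary granule proteins such as lactoferrin by myelocytes and metamyelocytes, and tertiary granule proteases later still, while mature cells express the calgranulins and the receptor for granulocyte colony-stimulating factor. Blood formation outside the marrow is common in the mouse spleen, which can therefore hold early stages as well as mature cells.

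Promoters of C1qb and C1qc and of the granule genes Mpo, Ltf and Lcn2 are shown because levels within each of these groups parted in some tumors, as given below. That of C1qa is not shown. The sequences are the 250 bases before the annotated start of the mouse gene in RefSeq, build GRCm38.p6, written on the strand of the gene. The capitals mark matches, on either strand, to GAGGAA, the core of sites of the myeloid factor PU.1, or to TTGNNCAA, a site of the C/EBP factors.
C1qb, chr4:136886201-136886450, minus strand: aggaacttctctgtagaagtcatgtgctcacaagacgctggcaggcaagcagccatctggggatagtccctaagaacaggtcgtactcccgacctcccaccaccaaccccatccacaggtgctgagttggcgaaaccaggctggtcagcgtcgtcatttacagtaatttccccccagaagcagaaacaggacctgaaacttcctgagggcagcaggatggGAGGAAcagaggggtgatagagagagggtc
C1qc, chr4:136892915-136893164, minus strand: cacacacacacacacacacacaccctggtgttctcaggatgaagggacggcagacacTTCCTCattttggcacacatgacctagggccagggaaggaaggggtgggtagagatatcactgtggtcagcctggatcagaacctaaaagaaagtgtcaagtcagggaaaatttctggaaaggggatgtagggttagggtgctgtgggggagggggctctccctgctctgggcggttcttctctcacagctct
Mpo, chr11:87793534-87793783, plus strand: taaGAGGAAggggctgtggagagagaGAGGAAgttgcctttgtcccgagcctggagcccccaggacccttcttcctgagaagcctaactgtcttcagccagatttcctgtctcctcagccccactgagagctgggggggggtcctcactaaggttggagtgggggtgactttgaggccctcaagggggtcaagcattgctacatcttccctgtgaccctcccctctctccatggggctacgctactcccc
Ltf, chr9:111019042-111019291, plus strand: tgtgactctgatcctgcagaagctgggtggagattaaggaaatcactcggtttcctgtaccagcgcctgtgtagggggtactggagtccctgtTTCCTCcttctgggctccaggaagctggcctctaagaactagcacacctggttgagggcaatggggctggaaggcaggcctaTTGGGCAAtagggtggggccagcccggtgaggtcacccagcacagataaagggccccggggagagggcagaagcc
Lcn2, chr2:32387740-32387989, minus strand: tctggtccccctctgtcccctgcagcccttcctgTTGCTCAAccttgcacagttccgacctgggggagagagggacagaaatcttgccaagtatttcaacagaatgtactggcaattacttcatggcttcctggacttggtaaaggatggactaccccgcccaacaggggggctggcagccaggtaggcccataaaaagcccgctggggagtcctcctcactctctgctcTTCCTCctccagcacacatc
Over the whole RefSeq windows, which also hold 50 bases after the start, 25 of the 35 genes were matched. Member windows on 1 chromosome were left out, while the windows of all genes were not limited in this way. APOE had several windows and was counted where any of them held a match. GAGGAA occurred in the windows of 8 of 15 macrophage genes and 9 of 10 granulocyte genes, and in 28.3% of the 32851 windows of all genes. TTGNNCAA occurred in 0 of 15 and 3 of 10 (Ltf, Lcn2 and Mmp8), and in 6.4% of all windows. C1qb and C1qc each held 1 match to GAGGAA, and Ltf and Lcn2 each held 1 match to either motif. A match describes the letters of the window only.

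Libraries of MLN tumors held 14712392 to 21897188 estimated counts, those of spleen tumors 13328866 to 20091467, those of activated cells 20194017 to 25045814 and those of quiescent cells 15529618 to 24226060. The tumors are labelled as malignant plasma cells, and their content of plasma and B cell genes varied widely. The summed level of 7 plasma cell markers ranged from 1289 to 29458 CPM in MLN tumors and from 875 to 26221 CPM in spleen tumors, against 1099 to 1159 CPM in activated and 1855 to 2275 CPM in quiescent cells. The spleen tumors of mice 1610, 1612 and 1615 held 875, 1486 and 1304 CPM of plasma cell markers, and the MLN tumor of mouse 1611 held 1289 CPM, all below the lowest quiescent library. The summed level of 8 B cell markers ranged from 835 to 8093 CPM in MLN tumors and from 154 to 10310 CPM in spleen tumors, against 8934 to 10062 CPM in activated and 14933 to 15742 CPM in quiescent cells.

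Tumors held more macrophage and granulocyte RNA than control B cells, with wide differences between tumors. The 23 macrophage genes summed to between 851 and 5739 CPM in MLN tumors and between 736 and 8359 CPM in spleen tumors, against 40.3 to 58.3 CPM in activated and 282 to 738 CPM in quiescent cells. The 12 granulocyte genes summed to between 21.9 and 1460 CPM in MLN tumors and between 10.6 and 2898 CPM in spleen tumors, against 3.91 to 7.35 CPM in activated and 1.91 to 4.93 CPM in quiescent cells. Every tumor lay above every control library in the granulocyte sum. In the macrophage sum the lowest tumor, the spleen tumor of mouse 1610 at 736 CPM, lay just under the highest control, quiescent library 4 at 738 CPM. The MLN tumor of mouse 1611 and the spleen tumors of mice 1611 and 1614 led in the granulocyte sum. In these bulk samples fewer cells of a type and less RNA per cell cannot be told apart.

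**Figure D1:**
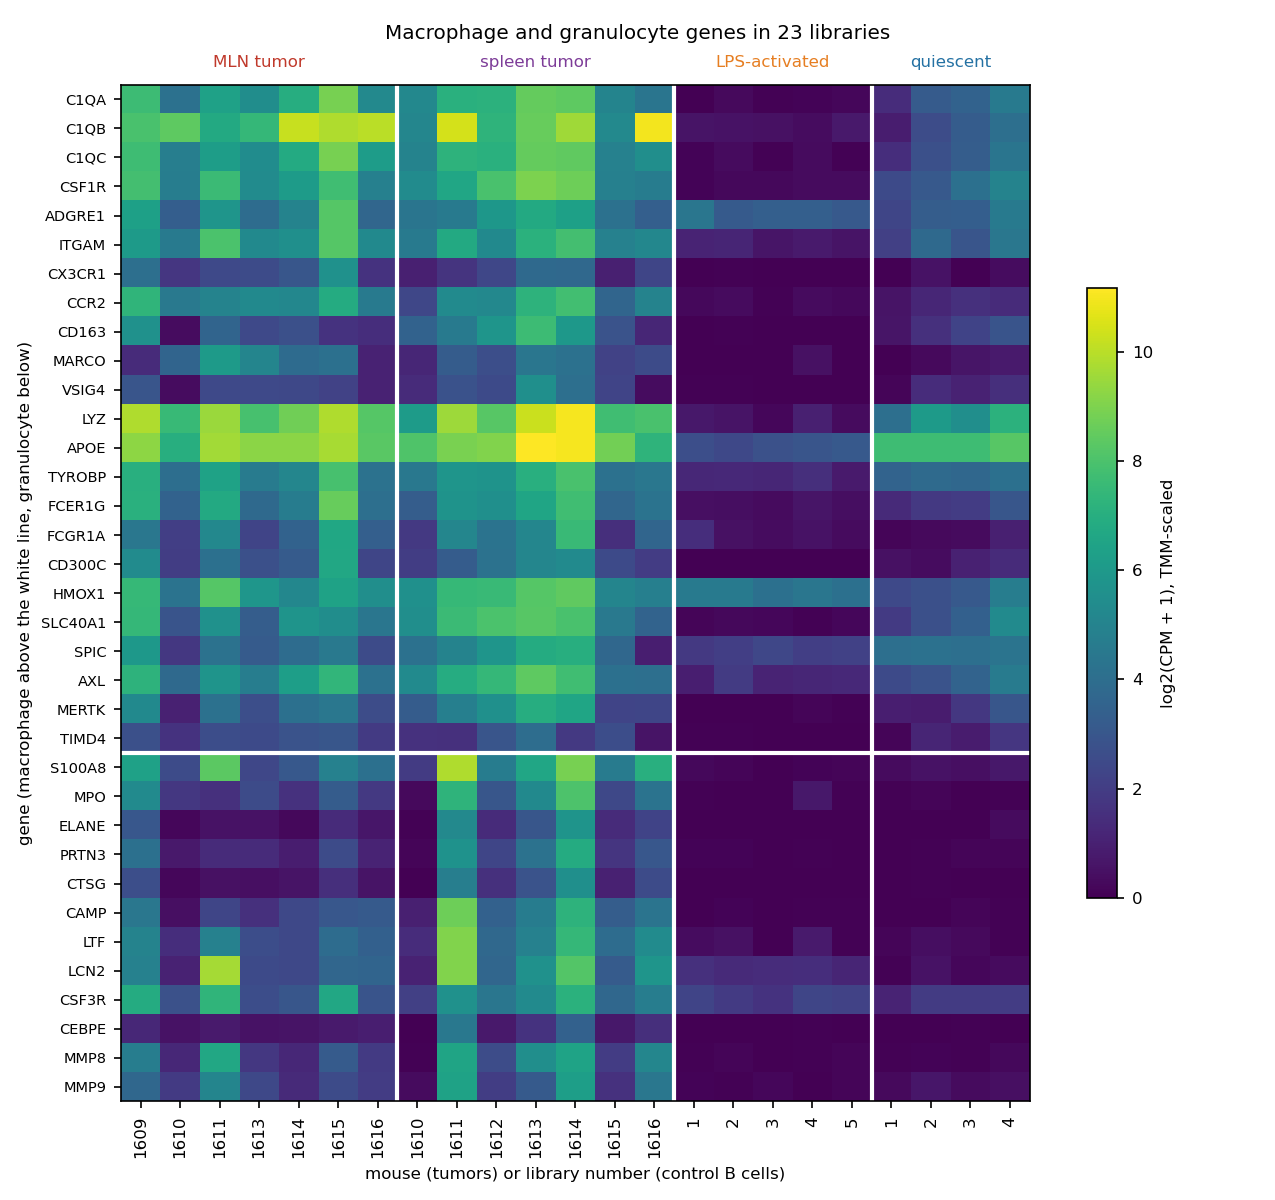
Level of the 35 genes in all 23 libraries as log2(CPM + 1), TMM-scaled, with 23 macrophage genes above the white line and 12 granulocyte genes below it, and libraries grouped into MLN tumors, spleen tumors, LPS-activated and quiescent B cells. Apart from CSF3R and LCN2, granulocyte genes are near 0 in the 9 control libraries. They are brightest in the spleen tumors of mice 1611 and 1614, with S100A8, LCN2, CSF3R and MMP8 also bright in the MLN tumor of mouse 1611. Macrophage genes are spread over all 14 tumors. Many are also seen in quiescent libraries, most of all in library 4, and some, such as HMOX1 and ADGRE1, in activated libraries.

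**Figure D2:**
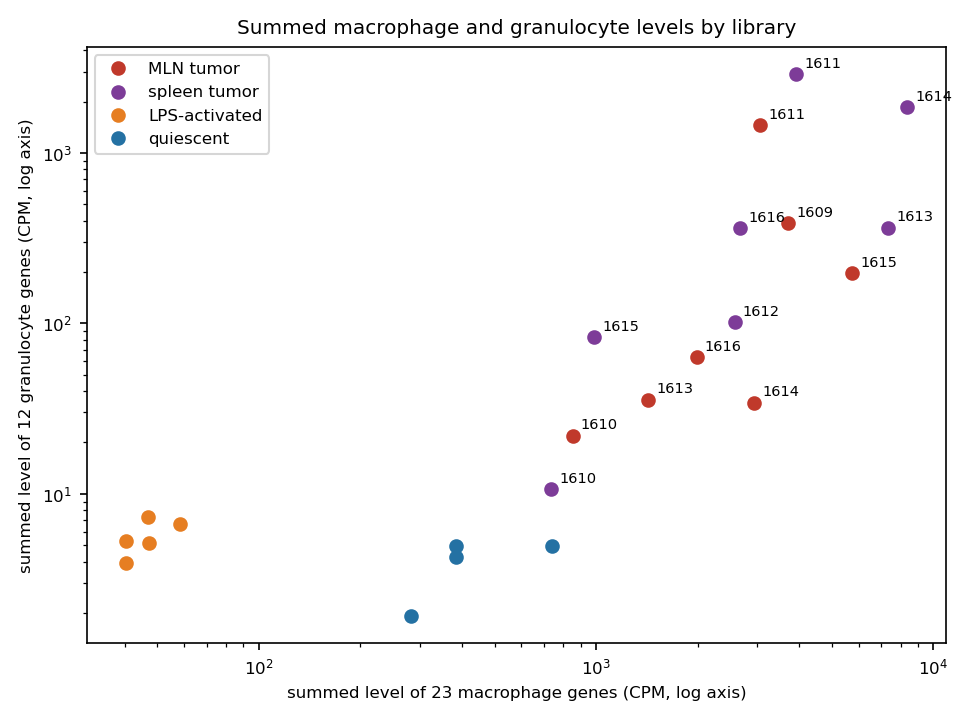
Summed level of the 12 granulocyte genes (y axis, CPM, log axis) against that of the 23 macrophage genes (x axis, CPM, log axis), 1 point per library, with tumors labelled by mouse. Tumors lie between 736 and 8359 CPM on the x axis and 10.6 and 2898 CPM on the y axis, and all 9 control libraries lie at 7.35 CPM or below on the y axis.

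Tests against the controls were made over 8 tumor mice, with the counts of a mouse's tumors summed, and log2 changes are tumors over controls with an approximate standard error (SE). An adjusted p of 0.05 or below in edgeR's quasi-likelihood test, adjusted by Benjamini-Hochberg over all 12322 profiles, was taken as passing. Against activated cells all 23 macrophage and all 12 granulocyte genes were higher, against 37.2% of all profiles. Against quiescent cells 22 of 23 macrophage genes and 12 of 12 granulocyte genes were higher, against 37.4% of all profiles, and SPIC did not pass. None of the 35 was lower, against 26.3% of all profiles in the comparison with activated and 30.3% in that with quiescent cells. The groups did not overlap, with every tumor mouse above every control library, for 21 macrophage and 11 granulocyte genes against activated cells (22.2% of all profiles), and for 12 and 11 against quiescent cells (23% of all profiles). The median log2 change against activated cells was 8.38 for macrophage and 8.22 for granulocyte genes, or 8.51 and 8.30 with genes of 3 or fewer control counts at their counting ratios, and against quiescent cells it was 3.46 and 8.15, while over all profiles it was 0.12 in both comparisons. Both comparisons share the same tumors. Of the 35 genes, 17 macrophage and 2 granulocyte genes would have passed the minimum on control libraries alone, and the others passed only through tumors, where they had to be high. Those others are the macrophage genes MARCO, VSIG4, FCGR1A, CX3CR1, CD300C and TIMD4 and all granulocyte genes but LCN2 and CSF3R, so the counts of higher genes below were favoured by the minimum for them. Of those 17 and 2, 16 and 2 were higher against quiescent cells, and 17 and 2 against activated cells. They did not overlap with controls for 8 and 2 genes against quiescent cells, and for 15 and 1 against activated cells. The shares given here are over all 12322 profiles, of which 1786 passed only through tumors.

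The chains of complement C1q, which binds antibody complexes and dying cells and is made mainly by macrophages, were higher in every tumor mouse than in any control library. Of all profiles, 22.2% were likewise higher with no overlap against activated and 23% against quiescent cells. C1QA ranged from 16.7 to 462 CPM in MLN tumors (median 83.5) and from 19 to 368 CPM in spleen tumors (median 136). Activated libraries held 0, 0.21, 0.0482, 0.0831 and 0.145 CPM of C1QA and quiescent libraries 1.64, 8.17, 10.5 and 22.3 CPM. All tumor mice lay above all controls, and C1QA rose by 10.55 ± 1.01 (SE, adjusted p = 3.42e-07) against activated and by 3.76 ± 0.71 (SE, adjusted p = 0.00028) against quiescent cells. C1QB ranged from 108 to 1188 CPM in MLN tumors (median 333) and from 34 to 1987 CPM in spleen tumors (median 383). In activated libraries C1QB stood at 0.507, 0.461, 0.434, 0.291 and 0.675 CPM and in quiescent libraries at 0.873, 5.07, 8.6 and 16.1 CPM. Its highest tumor, the spleen tumor of mouse 1616, lay far above the highest quiescent library, and C1QB rose by 10.19 ± 0.98 (SE, adjusted p = 3.35e-07) against activated and by 6.12 ± 0.87 (SE, adjusted p = 2.15e-05) against quiescent cells. C1QC ranged from 26.6 to 469 CPM in MLN tumors (median 73.1) and from 28.9 to 372 CPM in spleen tumors (median 134). Activated libraries held 0.078, 0.251, 0.0482, 0.249 and 0.0482 CPM of C1QC and quiescent libraries 1.75, 5.57, 8.71 and 19.5 CPM. The groups did not overlap, and the changes were 10.08 ± 0.89 (SE, adjusted p = 1.31e-07) against activated and 4.07 ± 0.66 (SE, adjusted p = 7.45e-05) against quiescent cells. Quiescent library 4 was the highest control for the 3 chains, and without it the log2 changes against quiescent cells were 4.41 for C1QA, 6.77 for C1QB and 4.8 for C1QC.

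C1QB parted from its partner chains in some tumors, a pattern chosen after the values were seen and given with no test. CPM is not corrected for transcript length, so a ratio between genes is read only by how it varies between libraries. C1QC over C1QA stayed between 0.876 and 1.92 in MLN tumors, between 0.878 and 2.39 in spleen tumors and between 0.682 and 1.07 in quiescent cells. C1QB over C1QA ran from 1.24 to 27.4 in MLN tumors and from 0.955 to 105 in spleen tumors, against 0.533 to 0.819 in quiescent cells. The ratio was 27.4, 19.9 and 9.54 in the MLN tumors of mice 1616, 1610 and 1614, and 105 and 10.3 in the spleen tumors of mice 1616 and 1611. In the spleen tumor of mouse 1616, C1QB stood at 1987 CPM beside 19.0 CPM of C1QA and 45.4 CPM of C1QC. In the spleen tumor of mouse 1613, the same genes stood at 383, 368 and 372 CPM. So C1QB, one of the given macrophage markers, did not follow the other macrophage genes across tumors: among spleen tumors, that of mouse 1616 had the highest C1QB but the lowest C1QA, with CSF1R at 25.0 CPM, MERTK at 4 CPM and SPIC at 0.899 CPM. Plasma cell markers summed to 29458, 19690 and 5778 CPM in those MLN tumors and to 26221 and 7422 CPM in those spleen tumors. The tumors with ratios of 105, 27.4 and 19.9 held the most of these markers. The lowest ratio, 0.955 in the spleen tumor of mouse 1610, stood beside the lowest sum, 875 CPM. Between these ends the 2 orders differed in part. The MLN tumors of mice 1615 and 1613 held 9067 and 8249 CPM of these markers at ratios of 1.99 and 4.04. The spleen tumor of mouse 1613 held 5095 CPM at a ratio of 1.04. The part of plasma cells in the level of C1QB was not tested.

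**Figure D3:**
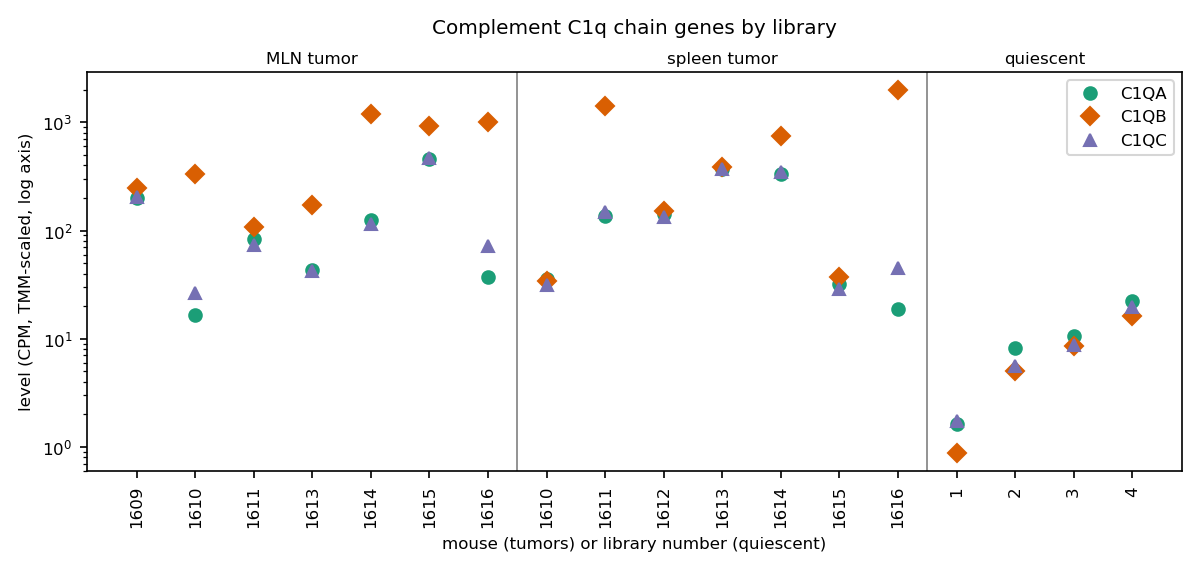
Level of C1QA, C1QB and C1QC (CPM, TMM-scaled, log axis) in each MLN tumor, spleen tumor and quiescent B cell library, 1 point per gene and library. The 3 chains lie together in the spleen tumors of mice 1612 and 1613 and in quiescent cells, while C1QB lies far above the others in both tumors of mouse 1616.

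Receptors that mark macrophages and monocytes and draw them into tissue were higher in tumors, all 5 of 5 against either control. Of all profiles, 37.2% were higher against activated and 37.4% against quiescent cells, and CX3CR1 had passed the minimum only through tumors. CSF1R, the receptor for the growth factor CSF1, ranged from 25.3 to 228 CPM in MLN tumors (median 68.2) and from 25 to 492 CPM in spleen tumors (median 97.3). Activated libraries held 0.078, 0.168, 0.193, 0.249 and 0.241 CPM of CSF1R and quiescent libraries 4.64, 7.79, 16.2 and 30.9 CPM. It rose by 9.82 ± 0.92 (SE, adjusted p = 2.72e-07) against activated and by 3.46 ± 0.68 (SE, adjusted p = 0.000363) against quiescent cells, where quiescent library 4 reached into the range of the lower tumors. ADGRE1, which encodes the F4/80 antigen of mouse macrophages, ranged from 9.22 to 294 CPM in MLN tumors (median 30.6) and from 9.39 to 109 CPM in spleen tumors (median 23.5). Its levels in activated libraries were 19.9, 7.92, 9.36, 9.56 and 7.67 CPM and in quiescent libraries 4.04, 8.78, 9.2 and 22.8 CPM. ADGRE1 was thus present in both controls and overlapped with the lower tumors, with changes of 2.45 ± 0.57 (SE, adjusted p = 0.00127) against activated and 2.35 ± 0.62 (SE, adjusted p = 0.00337) against quiescent cells. CCR2, the chemokine receptor of inflammatory monocytes, ranged from 21.7 to 157 CPM in MLN tumors (median 34.7) and from 4.23 to 220 CPM in spleen tumors (median 36.1). Activated libraries held 0.195, 0.251, 0.0482, 0.249 and 0.193 CPM of CCR2 and quiescent libraries 0.491, 1.28, 1.96 and 1.56 CPM. Tumors and controls did not overlap, and CCR2 rose by 8.51 ± 0.82 (SE, adjusted p = 3.62e-07) against activated and by 5.69 ± 0.75 (SE, adjusted p = 1.14e-05) against quiescent cells. CX3CR1, the fractalkine receptor of patrolling monocytes and some tissue macrophages, ranged from 2.15 to 49.1 CPM in MLN tumors (median 4.93) and from 0.958 to 13 CPM in spleen tumors (median 4). It held 1 count over the 5 activated libraries, in library 2, and stood at 0, 0.454, 0 and 0.312 CPM in quiescent libraries. The MLN tumor of mouse 1615 stood apart as the highest, and CX3CR1 was 996-fold higher than in activated cells by its counts (95% counting interval 179 to 39346, adjusted p = 6.98e-06) and rose by 5.39 ± 0.99 (SE, adjusted p = 0.000227) against quiescent cells. ITGAM, the integrin alpha M (CD11b) chain shared by macrophages and granulocytes, ranged from 22.6 to 301 CPM in MLN tumors and from 22.8 to 226 CPM in spleen tumors, and rose by 6.82 ± 0.72 (SE, adjusted p = 9.12e-07) against activated and by 3.07 ± 0.62 (SE, adjusted p = 0.000505) against quiescent cells. Without quiescent library 4 the changes against quiescent cells were 4.10 for CSF1R and 2.96 for ADGRE1, and without quiescent library 2 that of CX3CR1 was 6.37, while without activated library 2 that of CX3CR1 against activated cells was 10.83 in place of a fitted 9.35.

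Scavenger receptors, which take up modified proteins, microbes and haemoglobin complexes, differed widely between tumors and were near 0 in activated cells. MARCO and VSIG4 had passed the minimum only through tumors. Of all profiles, 22.2% were higher with no overlap over tumor mice against activated and 23% against quiescent cells. CD163, the receptor for haemoglobin bound to haptoglobin, ranged from 0.3 to 48.5 CPM in MLN tumors (median 4.48) and from 1.3 to 199 CPM in spleen tumors (median 22.4). It held 1 count over the 5 activated libraries and stood at 0.545, 1.9, 3.81 and 6.55 CPM in quiescent libraries. The spleen tumor of mouse 1613 led and the MLN tumor of mouse 1610 lay below all 4 quiescent libraries, so the groups overlapped. CD163 was 3738-fold higher than in activated cells by its counts (95% counting interval 671 to 147644, adjusted p = 1.38e-05) and rose by 3.37 ± 0.97 (SE, adjusted p = 0.0062) against quiescent cells. MARCO, a receptor for bacteria and particles found on marginal zone macrophages of the mouse spleen, ranged from 1.11 to 65.9 CPM in MLN tumors (median 14.1) and from 1.29 to 20 CPM in spleen tumors (median 5.48). Its levels were 0, 0, 0, 0.415 and 0 CPM in activated and 0, 0.206, 0.544 and 0.748 CPM in quiescent libraries. All tumor mice lay above all controls, and MARCO rose by 7.26 ± 1.26 (SE, adjusted p = 0.000111) against activated and by 5.16 ± 1.21 (SE, adjusted p = 0.00147) against quiescent cells. Its 10 activated counts all lay in library 4, without which the fitted change was 11.47, and without mouse 1611 it was 6.64. VSIG4, a complement receptor of resident macrophages, ranged from 0.3 to 6.61 CPM in MLN tumors (median 4.36) and from 0.3 to 46.5 CPM in spleen tumors (median 4.66). It held 2 counts over the activated libraries and stood at 0.109, 1.69, 1.09 and 1.81 CPM in quiescent libraries. Low tumors overlapped with quiescent cells, and VSIG4 was 437-fold higher than in activated cells by its counts (95% counting interval 121 to 3612, adjusted p = 1.94e-05) and rose by 2.58 ± 0.87 (SE, adjusted p = 0.015) against quiescent cells. Without mouse 1613 the change of VSIG4 was 1.97 against quiescent and 7.77 (fitted 8.38 with it) against activated cells, and without quiescent library 4 that of CD163 against quiescent cells was 3.98, while without activated library 2 the fitted change of CD163 was 12.78 in place of 11.30. With MLN tumors alone neither CD163 (adjusted p = 0.148, from 0.000164 to 0.148 over alternatives) nor VSIG4 (adjusted p = 0.0722, from 0.00209 to 0.0722) passed against quiescent cells in edgeR.

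The adaptors and Fc receptors, through which macrophages and other myeloid cells read antibodies and activating signals, were higher for 4 of 4 genes in both comparisons, with no overlap over tumor mice. Of all profiles, 37.2% were higher against activated and 37.4% against quiescent cells, and 22.2% and 23% were higher with no overlap. FCGR1A and CD300C had passed the minimum only through tumors. TYROBP, the DAP12 adaptor, ranged from 15.4 to 239 CPM in MLN tumors (median 34.3) and from 17.1 to 249 CPM in spleen tumors (median 52.8). It stood at 1.36, 1.42, 1.3, 1.83 and 0.724 CPM in activated and 10.9, 13.4, 12.2 and 16.3 CPM in quiescent libraries. Quiescent libraries were tightly grouped for TYROBP and reached into the range of the lowest tumors, and it rose by 5.94 ± 0.59 (SE, adjusted p = 4.45e-07) against activated and by 2.58 ± 0.52 (SE, adjusted p = 0.000476) against quiescent cells. FCER1G, the common gamma chain of Fc receptors, ranged from 10.3 to 377 CPM in MLN tumors and from 8.66 to 216 CPM in spleen tumors, and rose by 7.79 ± 0.85 (SE, adjusted p = 1.25e-06) against activated and by 4.53 ± 0.76 (SE, adjusted p = 9.8e-05) against quiescent cells. FCGR1A, the high-affinity IgG receptor, ranged from 3.22 to 100 CPM in MLN tumors and from 1.81 to 187 CPM in spleen tumors, and rose by 5.71 ± 0.90 (SE, adjusted p = 4.83e-05) against activated and by 6.41 ± 1.07 (SE, adjusted p = 9.73e-05) against quiescent cells. Without mouse 1614 the changes of FCGR1A were 5.09 and 5.77, against activated and quiescent cells, without activated library 1 it was 6.56 against activated cells, and without quiescent library 4 it was 7.34 against quiescent cells. CD300C, an activating receptor of myeloid cells, ranged from 3.07 to 101 CPM in MLN tumors (median 8.14) and from 3 to 39.2 CPM in spleen tumors (median 8.5). It had 0 counts in all 5 activated libraries and stood at 0.436, 0.289, 1.03 and 1.62 CPM in quiescent libraries. The MLN tumor of mouse 1615 was far above the other tumors, and CD300C was at least 811-fold higher than in activated cells (floor of 3 counts over the group, adjusted p = 1.01e-05) and rose by 4.65 ± 0.89 (SE, adjusted p = 0.000615) against quiescent cells.

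Genes of heme breakdown and iron export, the trade of red pulp macrophages, were high in some tumors of both tissues. The 3 genes summed to 403, 494, 716 and 720 CPM in the spleen tumors of mice 1611 to 1614, to 411 and 360 CPM in the MLN tumors of mice 1609 and 1611, and to 149 CPM or less in the other tumors. HMOX1, the enzyme heme oxygenase 1, ranged from 18.2 to 294 CPM in MLN tumors (median 56.8) and from 27 to 344 CPM in spleen tumors (median 178). It was already present in controls, at 23.1, 23.4, 16.6, 19.8 and 16.5 CPM in activated and 4.53, 5.65, 7.57 and 25.3 CPM in quiescent libraries. HMOX1 rose by 2.86 ± 0.56 (SE, adjusted p = 0.000332) against activated and by 3.69 ± 0.65 (SE, adjusted p = 0.000158) against quiescent cells, with no overlap over tumor mice. SLC40A1, the iron exporter ferroportin, ranged from 6.45 to 174 CPM in MLN tumors (median 43.3) and from 10.7 to 303 CPM in spleen tumors (median 194). Its levels were 0.117, 0.168, 0.145, 0.0415 and 0.145 CPM in activated and 2.67, 5.53, 9.63 and 39.2 CPM in quiescent libraries. Quiescent library 4 exceeded several tumors, so the groups overlapped, and SLC40A1 rose by 9.88 ± 1.16 (SE, adjusted p = 2.57e-06) against activated and by 3.02 ± 0.81 (SE, adjusted p = 0.00376) against quiescent cells. SPIC, the transcription factor that red pulp macrophages need in mice, ranged from 2.47 to 61.6 CPM in MLN tumors (median 14.2) and from 0.899 to 127 CPM in spleen tumors (median 30.9). It stood at 2.61, 3.23, 4.15, 3.16 and 3.52 CPM in activated and 15.7, 16.7, 15.7 and 18.6 CPM in quiescent libraries. Quiescent cells were even and lay within the tumor range for SPIC, whose change was 1.20 ± 0.59 (SE, adjusted p = 0.0811) against quiescent cells, above the threshold, while it rose by 3.58 ± 0.62 (SE, adjusted p = 0.00011) against activated cells. SPIC passed against quiescent cells in DESeq2 (adjusted p = 0.0305) and, in edgeR, without mouse 1610 (adjusted p = 0.0474) or without mouse 1616 (adjusted p = 0.0107), over a range of 0.0107 to 0.821 with all alternatives. Without quiescent library 4 the changes against quiescent cells were 4.55 for HMOX1 and 4.27 for SLC40A1, and with MLN tumors alone SLC40A1 did not pass (adjusted p = 0.0654, from 9.93e-05 to 0.0654 over alternatives).

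Receptors that recognise dying cells were higher for 3 of 3 genes against both controls and overlapped with quiescent cells. Of all profiles, 37.2% were higher against activated and 37.4% against quiescent cells, and TIMD4 had passed the minimum only through tumors. AXL, a receptor tyrosine kinase for the bridging protein GAS6, ranged from 13.1 to 163 CPM in MLN tumors (median 53.4) and from 16 to 339 CPM in spleen tumors (median 118). It stood at 0.897, 2.81, 1.16, 1.33 and 1.45 CPM in activated and 4.74, 6.27, 10.6 and 23.8 CPM in quiescent libraries. AXL rose by 6.17 ± 0.71 (SE, adjusted p = 2.14e-06) against activated and by 3.22 ± 0.65 (SE, adjusted p = 0.000483) against quiescent cells. MERTK, the related kinase that macrophages use to engulf apoptotic cells, ranged from 1.05 to 37.8 CPM in MLN tumors (median 16.6) and from 3.83 to 124 CPM in spleen tumors (median 27.4). Its levels were 0, 0, 0, 0.125 and 0.0482 CPM in activated and 0.927, 0.784, 2.5 and 6.86 CPM in quiescent libraries. The spleen tumors of mice 1613 and 1614 led for MERTK, and it rose by 9.68 ± 1.19 (SE, adjusted p = 4.21e-06) against activated and by 3.51 ± 0.85 (SE, adjusted p = 0.00186) against quiescent cells. TIMD4, the phosphatidylserine receptor TIM-4, ranged from 2.1 to 6.99 CPM in MLN tumors (median 5.26) and from 0.5 to 15.1 CPM in spleen tumors (median 2.57). It held 2 counts over the activated libraries and stood at 0.109, 1.2, 0.817 and 2.43 CPM in quiescent libraries. TIMD4 varied least among the macrophage genes between MLN tumors (SD of 0.624 on the log2 scale, n = 7), was 282-fold higher than in activated cells by its counts (95% counting interval 77.8 to 2330, adjusted p = 1.8e-06) and rose by 2.09 ± 0.63 (SE, adjusted p = 0.00839) against quiescent cells. Without quiescent library 4 the changes against quiescent cells were 3.87 for AXL, 4.48 for MERTK and 2.76 for TIMD4, and without activated library 4 the fitted change of MERTK, which held 4 counts over those libraries, was 10.99. With spleen tumors alone TIMD4 did not pass against quiescent cells (adjusted p = 0.0573, from 0.000679 to 0.0573 over alternatives).

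The secreted products LYZ and APOE together held 306 to 1737 CPM in MLN tumors and 341 to 4157 CPM in spleen tumors, against 4.86 to 7.86 CPM in activated and 223 to 453 CPM in quiescent cells. LYZ, lysozyme, ranged from 181 to 900 CPM in MLN tumors (median 432) and from 68.6 to 2079 CPM in spleen tumors (median 309). It stood at 0.624, 0.503, 0.145, 0.997 and 0.241 CPM in activated and 15.7, 67.4, 44.7 and 145 CPM in quiescent libraries. The lowest tumor, the spleen tumor of mouse 1610, lay below quiescent library 4, and LYZ rose by 10.26 ± 0.90 (SE, adjusted p = 1.31e-07) against activated and by 3.16 ± 0.67 (SE, adjusted p = 0.000724) against quiescent cells (3.83 without quiescent library 4). APOE, the lipid carrier apolipoprotein E, ranged from 125 to 839 CPM in MLN tumors and from 154 to 2292 CPM in spleen tumors. Quiescent B cells held 207, 209, 208 and 308 CPM of APOE, more than the lowest tumors, and activated cells 5.46, 4.36, 5.79, 6.77 and 7.62 CPM. It rose by 6.93 ± 0.54 (SE, adjusted p = 3.86e-08) against activated and by 1.59 ± 0.44 (SE, adjusted p = 0.0048) against quiescent cells.

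S100A8, a calgranulin that fills the cytosol of neutrophils and the given marker of granulocytes, was higher in every tumor than in any control library. Of all profiles, 22.2% were higher with no overlap over tumor mice against activated and 23% against quiescent cells. S100A8 had passed the minimum only through tumors, where it had to be high. It ranged from 4.2 to 329 CPM in MLN tumors (median 16.4) and from 2.89 to 905 CPM in spleen tumors (median 97). Activated libraries held 0.195, 0.126, 0, 0.0831 and 0.0965 CPM and quiescent libraries 0.273, 0.454, 0.381 and 0.623 CPM of it. The MLN tumor of mouse 1611, at 329 CPM, and the spleen tumors of mice 1611 and 1614, at 905 and 463 CPM, stood far above the others. S100A8 rose by 10.34 ± 1.45 (SE, adjusted p = 1.51e-05) against activated and by 8.28 ± 1.41 (SE, adjusted p = 0.000113) against quiescent cells. Without mouse 1611 the changes were 9.35 and 7.38.

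Primary granule proteins, made at the promyelocyte stage, were led by the same pair of spleen tumors. All 4 genes were higher in both comparisons, and all 4 had passed the minimum only through tumors. Of all profiles, 37.2% were higher against activated and 37.4% against quiescent cells. MPO, myeloperoxidase, ranged from 1.92 to 39.3 CPM in MLN tumors (median 2.6) and from 0.199 to 261 CPM in spleen tumors (median 18). Its levels were 0.039, 0, 0, 0.623 and 0.0482 CPM in activated and 0.0545, 0.124, 0 and 0.0623 CPM in quiescent libraries. The MLN tumor of mouse 1611 held only 1.92 CPM of MPO, while the spleen tumors of mice 1614 and 1611 held 261 and 152 CPM. MPO rose by 8.01 ± 1.37 (SE, adjusted p = 0.000101) against activated and by 9.08 ± 1.69 (SE, adjusted p = 0.000249) against quiescent cells, with no overlap over tumor mice. ELANE, neutrophil elastase, ranged from 0.15 to 7.05 CPM in MLN tumors (median 0.47) and from 0.0498 to 53.3 CPM in spleen tumors (median 3.7). It had 0 counts in the activated libraries and stood at 0, 0, 0 and 0.249 CPM in quiescent libraries, its 4 counts all in library 4. ELANE was at least 347-fold higher than in activated cells (floor of 3 counts over the group, adjusted p = 0.000663) and rose by 7.04 ± 1.77 (SE, adjusted p = 0.00371) against quiescent cells, where the lowest tumor mouse overlapped with library 4. CTSG, cathepsin G, ranged from 0.15 to 5.48 CPM in MLN tumors (median 0.505) and from 0 to 46.7 CPM in spleen tumors (median 4.8). It had 0 counts in the activated libraries and 1 count over the quiescent libraries. The lowest spleen tumor, that of mouse 1610, also had 0 CPM of CTSG. With the counts of all tumors pooled, CTSG was at least 290-fold higher than in activated cells (floor of 3 counts over the group, adjusted p = 0.000357 in edgeR). Against quiescent cells it was 587-fold higher by its pooled counts (95% counting interval 105 to 23216, adjusted p = 0.00135 in edgeR). PRTN3, proteinase 3, ranged from 0.675 to 16.4 CPM in MLN tumors and from 0.0995 to 116 CPM in spleen tumors, and rose by 8.43 ± 1.35 (SE, adjusted p = 5.6e-05) against activated and by 7.80 ± 1.46 (SE, adjusted p = 0.000258) against quiescent cells. Without mouse 1614 the changes against activated and quiescent cells were 7.17 and 8.25 for MPO, 9.86 (fitted 10.70 with it) and 6.23 for ELANE, 9.55 (fitted 10.45 with it) and 7.70 (fitted 8.57 with it) for CTSG, and 7.52 and 6.88 for PRTN3. Control libraries with single counts moved these fits too: MPO was 10.50 without activated library 4 and 9.77 without quiescent library 2, ELANE 10.73 without quiescent library 4 and CTSG 10.46 without quiescent library 2.

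Secondary granule proteins, made at the myelocyte stage, were also higher for 3 of 3 genes in both comparisons, of which CAMP and LTF had passed the minimum only through tumors. Of all profiles, 37.2% were higher against activated and 37.4% against quiescent cells. CAMP, the antimicrobial peptide cathelicidin, ranged from 0.375 to 20.6 CPM in MLN tumors (median 4.29) and from 0.945 to 411 CPM in spleen tumors (median 18.7). It stood at 0, 0.0838, 0, 0.0415 and 0.0482 CPM in activated libraries and held 3 counts over the quiescent libraries. The spleen tumors of mice 1611 and 1614, at 411 and 146 CPM, led, and CAMP rose by 10.05 ± 1.57 (SE, adjusted p = 4.28e-05) against activated cells and was 1248-fold higher than in quiescent cells by its counts (95% counting interval 427 to 6052, adjusted p = 0.000173). LTF, the iron-binding protein lactoferrin, ranged from 1.72 to 31 CPM in MLN tumors (median 9.88) and from 1.64 to 536 CPM in spleen tumors (median 29.2). Its levels were 0.312, 0.419, 0, 0.748 and 0.0482 CPM in activated and 0.109, 0.33, 0.218 and 0.0623 CPM in quiescent libraries. LTF followed CAMP in its leading tumors, at 536 and 172 CPM in the spleen tumors of mice 1611 and 1614, and rose by 7.48 ± 1.25 (SE, adjusted p = 8.35e-05) against activated and by 8.13 ± 1.49 (SE, adjusted p = 0.000217) against quiescent cells. LCN2, lipocalin 2, which binds bacterial iron carriers, ranged from 1.12 to 803 CPM in MLN tumors (median 11.2) and from 1.09 to 532 CPM in spleen tumors (median 49.8). It stood at 1.95, 1.51, 1.69, 1.74 and 1.25 CPM in activated and 0.0545, 0.454, 0.163 and 0.249 CPM in quiescent libraries. The highest value of LCN2 was in the MLN tumor of mouse 1611, and the lowest tumors overlapped with activated cells. LCN2 rose by 6.24 ± 1.38 (SE, adjusted p = 0.000949) against activated and by 8.90 ± 1.88 (SE, adjusted p = 0.000687) against quiescent cells. Without mouse 1611 the changes against activated and quiescent cells were 9.01 and 8.88 (fitted 9.84 with it) for CAMP, 6.41 and 7.16 for LTF, and 4.50 and 7.27 for LCN2. Without quiescent library 3 the fitted change of CAMP was 10.85, without quiescent library 2 that of LCN2 was 9.56, and without activated library 4 that of LTF was 8.09.

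The granulocyte receptor CSF3R and the transcription factor CEBPE, which mouse granulocytes need to make secondary granules, were higher in both comparisons. CEBPE had passed the minimum only through tumors. CSF3R ranged from 5.15 to 155 CPM in MLN tumors (median 6.88) and from 3.38 to 138 CPM in spleen tumors (median 25.8). It was present at low level in all controls, at 3.94, 2.77, 2.07, 3.99 and 3.62 CPM in activated and 1.15, 2.8, 2.88 and 2.93 CPM in quiescent libraries. CSF3R rose by 4.05 ± 0.71 (SE, adjusted p = 0.000122) against activated and by 4.41 ± 0.80 (SE, adjusted p = 0.00021) against quiescent cells, and its leading tumors were the MLN tumors of mice 1611, 1609 and 1615, at 155, 116 and 103 CPM, and the spleen tumor of mouse 1614, at 138 CPM. CEBPE ranged from 0.448 to 1.36 CPM in MLN tumors (median 0.726) and from 0 to 21.4 CPM in spleen tumors (median 1.8). It held 1 count over the activated and 1 count over the quiescent libraries. MLN tumors stayed within a narrow low range for CEBPE, while the spleen tumors of mice 1611 and 1614 held 21.4 and 9.95 CPM. CEBPE was 348-fold higher than in activated cells by its counts (95% counting interval 62.2 to 13747, adjusted p = 9.23e-05) and 235-fold higher than in quiescent cells by its counts (95% counting interval 42 to 9276, adjusted p = 0.000407). Without mouse 1611 its fitted changes were 6.84 in place of 7.64 against activated and 6.46 in place of 7.18 against quiescent cells, without activated library 4 it was 9.11 against activated cells, and without quiescent library 3 it was 9.13 against quiescent cells.

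The proteases MMP8, neutrophil collagenase, and MMP9, gelatinase B of tertiary granules, were higher in both comparisons, with no overlap over tumor mice. Both had passed the minimum only through tumors. Of all profiles, 22.2% were higher with no overlap against activated and 23% against quiescent cells. MMP8 ranged from 1.35 to 101 CPM in MLN tumors (median 2.67) and from 0.0498 to 91.9 CPM in spleen tumors (median 33.5). Its levels were 0.039, 0.126, 0, 0.0415 and 0.0965 CPM in activated and 0.0545, 0.0825, 0.0544 and 0.187 CPM in quiescent libraries. MMP8 rose by 8.79 ± 1.28 (SE, adjusted p = 2.16e-05) against activated and by 8.17 ± 1.38 (SE, adjusted p = 0.000107) against quiescent cells, and the MLN tumor of mouse 1611 was its highest. MMP9 ranged from 1.51 to 32.9 CPM in MLN tumors (median 4.37) and from 0.249 to 84.9 CPM in spleen tumors (median 7.82). It stood at 0.078, 0.0419, 0.145, 0 and 0.0965 CPM in activated and 0.218, 0.577, 0.272 and 0.374 CPM in quiescent libraries. MMP9 rose by 7.86 ± 1.18 (SE, adjusted p = 2.85e-05) against activated and by 5.5 ± 1.10 (SE, adjusted p = 0.000458) against quiescent cells, led by the spleen tumors of mice 1611 and 1614. Without mouse 1611 the changes against activated and quiescent cells were 8.04 and 7.51 for MMP8 and 7.18 and 4.91 for MMP9.

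Granulocyte genes did not keep the same proportions in all tumors, again a pattern chosen after the values were seen. In the spleen tumors of mice 1611 and 1614 genes of all stages were high together. In the MLN tumor of mouse 1611 S100A8 stood at 329 CPM, CSF3R at 155 CPM, MMP8 at 101 CPM and the secondary granule gene LCN2 at 803 CPM, each the highest of the 7 MLN tumors. LTF, of the same granules as LCN2, stood at 29.4 CPM there, the second highest after 31 CPM in that of mouse 1609. MPO was at 1.92 CPM in the MLN tumor of mouse 1611, the lowest of the MLN tumors, with ELANE at 0.470 CPM and CAMP at 4.10 CPM. S100A8 over MPO was 171 there, against 0.862 to 14.5 in the other 13 tumors. LCN2 over LTF was 27.3 there, against 0.586 to 1.70 in the other 13 tumors. CAMP over MPO ran from 0.147 to 3.06 in MLN tumors and from 0.557 to 4.75 in spleen tumors.

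**Figure D4:**
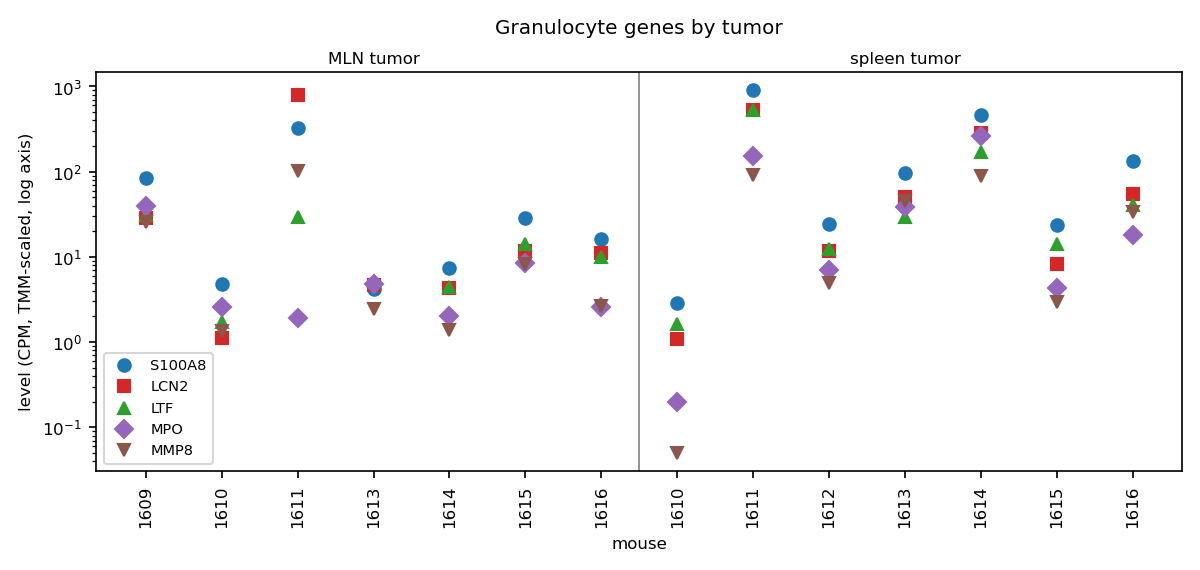
Level of S100A8, LCN2, LTF, MPO and MMP8 (CPM, TMM-scaled, log axis) in each of 7 MLN and 7 spleen tumors, ordered by mouse. In the MLN tumor of mouse 1611, MPO at 1.92 CPM lies far below LCN2 at 803 CPM, while in the spleen tumors of mice 1611 and 1614 all 5 genes lie at 89.0 CPM or above.

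Tumors of a tissue varied widely in these genes. The median SD of log2 levels over 7 MLN tumors was 1.5 for macrophage and 1.6 for granulocyte genes, against 0.475 for all profiles. Over 7 spleen tumors it was 1.68 and 2.89, against 0.576. Genes that passed the minimum only through some tumors had to vary. Among those that passed on control libraries alone, the median SD was 1.46 for 17 macrophage genes in MLN tumors, against 0.402 for all 10536 such profiles, and 1.71 in spleen tumors, against 0.484. The granulocyte genes of this kind had SDs of 2.32 (CSF3R) and 2.97 (LCN2) in MLN tumors and 1.66 and 3.04 in spleen tumors. In activated cells the median SD was 0.386 for macrophage and 0.403 for granulocyte genes, and in quiescent cells 1.19 and 0.492, against 0.123 and 0.128 for all profiles. Quiescent cells thus varied in macrophage genes, and quiescent library 4 held the most in the macrophage sum, at 738 CPM, while library 1 held the least, at 282 CPM.

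None of these genes passed between MLN and spleen tumors. Over the 14 tumor libraries, 0 of the 35 genes and 0 of 12322 profiles (0.0%) passed in edgeR, 602 profiles (4.89%) had an unadjusted p under 0.05, and 0 profiles passed in limma-trend and 28 (0.227%) in DESeq2. Changes are MLN over spleen. Of the 23 macrophage genes, 0 had an unadjusted p under 0.05, and their median log2 change was -0.28. Of the 12 granulocyte genes, 7 had an unadjusted p under 0.05, all lower in MLN tumors, against 2.82% of all profiles, and the median log2 change was -2.88, against -0.03 over all profiles. With a block for the mouse, 3 of these 7 kept an unadjusted p under 0.05, CAMP (0.0202), LTF (0.0275) and ELANE (0.0444), against 1.8% of all profiles lower in MLN, while CTSG had 0.0646, PRTN3 0.11, MPO 0.156 and CEBPE 0.235, each with an adjusted p of 1.0. LTF, MPO, PRTN3, CTSG and CEBPE were lower in the MLN tumor in 4 of 6 mice. CAMP averaged 6.63 ± 6.70 CPM in MLN tumors and 88.5 ± 151 CPM in spleen tumors (SD, n = 7 each), a log2 change of -3.79 ± 1.18 (SE, unadjusted p = 0.00611, adjusted p = 0.889 in edgeR). It was lower in the MLN tumor in 6 of 6 mice with both, which 1.36% of all profiles were, and CAMP was the 1 gene of the 35 called in DESeq2 (log2 change -3.77, adjusted p = 0.0469, from 0.0469 to 1.0 over alternatives). LTF, at 13.7 ± 12 CPM in MLN and 115 ± 195 CPM in spleen tumors (SD, n = 7 each), changed by -3.13 ± 1.09 (unadjusted p = 0.0122, adjusted p = 0.914 in edgeR). The primary granule genes MPO, ELANE, PRTN3 and CTSG changed by -3.0 ± 1.21, -3.34 ± 1.24, -2.89 ± 1.16 and -3.25 ± 1.21, and CEBPE by -2.87 ± 1.01, with adjusted p of 0.932, 0.921, 0.932, 0.921 and 0.914 in edgeR. The other 5 granulocyte genes, S100A8 (-1.85 ± 1.22), MMP9 (-1.70 ± 1.06), MMP8 (-0.93 ± 1.21), the secondary granule gene LCN2 (-0.18 ± 1.46) and CSF3R (0.45 ± 0.93), had no unadjusted p under 0.05. These differences rest in part on single tumors. Without the spleen tumor of mouse 1611 the change of CAMP was -2.41, of LTF -1.74, of CEBPE -1.79 and of S100A8 -0.89. Without the spleen tumor of mouse 1614 MPO was at -2.10, ELANE at -2.55, PRTN3 at -1.86 and CTSG at -2.37. Without the MLN tumor of mouse 1609 MPO was at -4.23, ELANE at -4.72, PRTN3 at -3.99, CTSG at -4.29 and CAMP at -4.41, and without the MLN tumor of mouse 1611 S100A8 was at -3.33.

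Among macrophage genes the changes ran from -2.25 for CD163 to 1.24 for MARCO, with none past the threshold. CD163 averaged 10.6 ± 17.1 CPM in MLN and 50.7 ± 69.4 CPM in spleen tumors (SD, n = 7 each), a log2 change of -2.25 ± 1.08 (unadjusted p = 0.0563, adjusted p = 0.999 in edgeR), and was lower in the MLN tumor in 5 of 6 mice. With a block for each of the 6 mice with both tumors, its change was -2.65 (unadjusted p = 0.0212, adjusted p = 1.0). VSIG4 had -1.63 ± 0.87 and was also lower in MLN in 5 of 6 mice, and 9.20% of all profiles were lower in MLN in 5 or 6 mice. SLC40A1 had -1.61 ± 0.82, MERTK -1.59 ± 0.85 and SPIC -1.47 ± 0.85, AXL -0.87 ± 0.75, CSF1R -0.76 ± 0.76, APOE -0.69 ± 0.59 and HMOX1 -0.67 ± 0.69, while MARCO had 1.24 ± 0.80 and CX3CR1 1.19 ± 0.81. TIMD4, at -0.01 ± 0.57 over all tumors, was higher in the MLN tumor in 5 of 6 mice, as 8.83% of all profiles were in 5 or 6 mice. For C1QB the change was -0.28 ± 0.85, within its error, and its sign turned in several settings, with 0.33 under the mouse block, 0.48 in limma-trend, 0.03 without the spleen tumor of mouse 1611 and 0.31 without that of mouse 1616. Without the MLN tumor of mouse 1609 CD163 was at -3.55 and SLC40A1 at -2.35, and without the spleen tumor of mouse 1613 CD163 was at -1.33. Of 8 erythroid markers 0 passed between the tissues and 7 had an unadjusted p under 0.05. They summed to between 14.7 and 1368 CPM in MLN tumors and between 140 and 3976 CPM in spleen tumors, and 8 of 8 were lower in MLN in 5 or 6 of the 6 mice. Their part in the granule and iron genes was not tested.

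**Figure D5:**
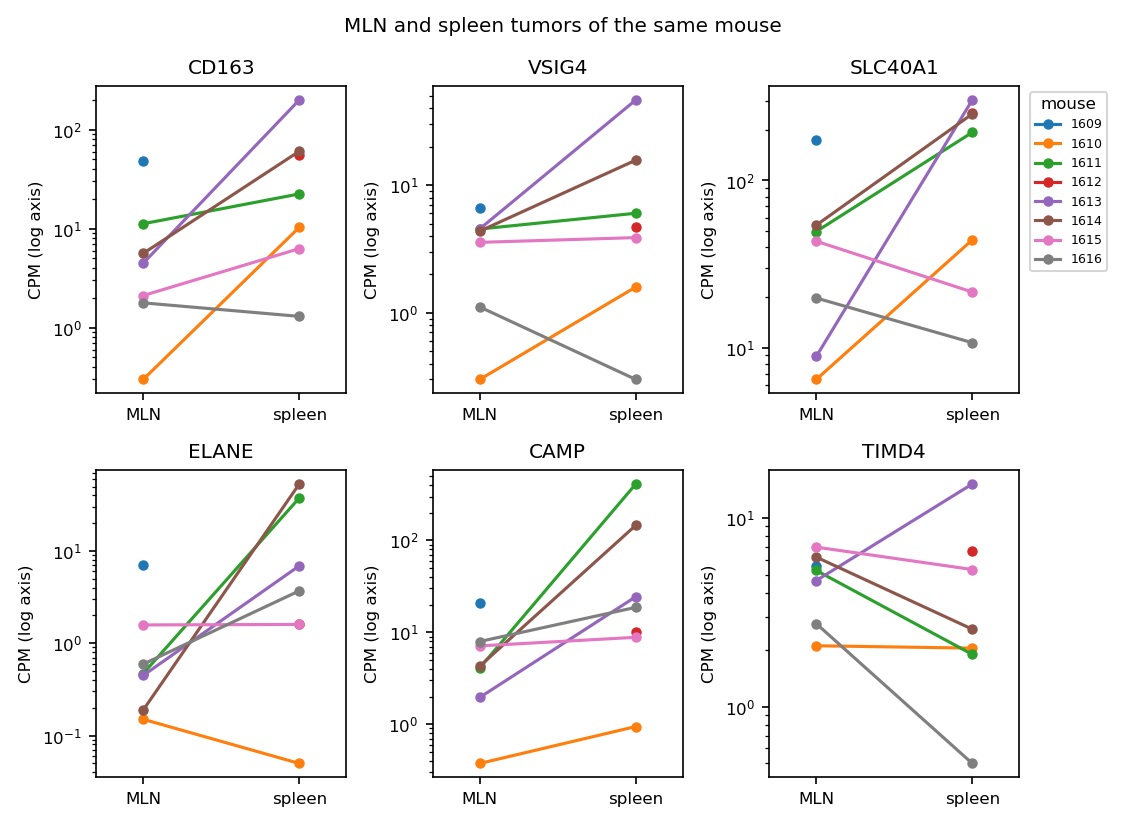
Level of 6 genes (CPM, log axis) in MLN and spleen tumors, with lines joining the tumors of a mouse and single points for mice 1609 (MLN only) and 1612 (spleen only). CAMP is lower in the MLN tumor in 6 of 6 mice, CD163, VSIG4 and ELANE in 5 of 6, and TIMD4 is higher in the MLN tumor in 5 of 6.

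Relations between genes were tested over tumors of 1 tissue, which come from different mice, as 10 relations of log2 CPM with exact 2-sided permutation of pairings and Benjamini-Hochberg adjustment. S100A8 went with LTF over the 7 MLN tumors (Pearson r = 0.900, exact p = 0.00675, adjusted 0.0225; Spearman rho = 0.857, exact p = 0.0238, adjusted 0.0595) and over the 7 spleen tumors (r = 0.988, exact p = 0.000397, adjusted 0.00397; rho = 0.964, exact p = 0.00278, adjusted 0.0278). S100A8 went with MPO over the spleen tumors (r = 0.972, exact p = 0.00139, adjusted 0.00694; rho = 0.929, exact p = 0.00675, adjusted 0.0337). Over the MLN tumors the relation of S100A8 with MPO did not pass (r = 0.243, exact p = 0.600, adjusted 0.833; rho = 0.00, exact p = 1.0), and the difference between the tissues was not tested. C1QB went with S100A8 over the spleen tumors (r = 0.868, exact p = 0.0103, adjusted 0.0258; rho = 0.893, exact p = 0.0123, adjusted 0.0410) and not at the threshold over the MLN tumors (r = -0.411, exact p = 0.358, adjusted 0.596; rho = -0.250, exact p = 0.595). The spleen tumors with the most C1QB, those of mice 1616 and 1611 at 1987 and 1404 CPM, held 19.0 and 136 CPM of C1QA, so the relation is given for C1QB alone. C1QB and SPIC showed no relation past the threshold in either tissue (r = -0.136 in MLN and -0.127 in spleen tumors, exact p = 0.771 and 0.817, rho = -0.214 and 0.00). Over the 6 mice with both tumors, neither C1QB (r = -0.0915, exact p = 0.833, rho = 0.143) nor S100A8 (r = 0.529, exact p = 0.296, rho = 0.486) of the MLN tumor passed a relation with that of the spleen tumor. With the 2 tumors farthest from the median of the gene on the x axis left out, n = 5, r was 0.849 and 0.979 for S100A8 with LTF in MLN and spleen tumors, 0.951 for S100A8 with MPO and 0.735 for C1QB with S100A8 in spleen tumors. None of the 10 relations then passed after adjustment (exact unadjusted p of 0.0833, 0.0167, 0.0250 and 0.150 for these 4), where 0.00833 is the smallest p that exact pairings of 5 tumors can give.

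Most further genes of both cell types were higher in tumors. Over all profiles, 37.2% were higher and 26.3% lower against activated cells, and 37.4% higher and 30.3% lower against quiescent cells. Of 25 further macrophage and monocyte genes, of which 11 passed the minimum only through tumors, 24 were higher against activated and 24 against quiescent cells, with median log2 changes of 7.38 and 3.96. SIGLEC1, the sialoadhesin of marginal metallophilic macrophages, averaged 28.4 ± 21.6 CPM in tumor mice and 0.820 ± 0.506 CPM in quiescent cells (SD, n = 8 and 4), and the inhibitory receptor SIRPA averaged 264 ± 171 CPM in tumor mice and 17.1 ± 11.7 CPM in quiescent cells. The name SIRPA is on 6 profiles, and the one used also bears SIRPB1 and SIRPG, so the mouse gene behind it is uncertain. Of 18 further granulocyte genes, of which 12 passed only through tumors, 17 were higher against activated and 16 against quiescent cells, with medians of 7.98 and 4.96. CEBPA, a transcription factor of early granulocyte development, averaged 17.7 ± 11.7 CPM in tumor mice and 0.900 ± 0.386 CPM in quiescent cells. The neutrophil surface antigen CD177 averaged 22.4 ± 26.0 CPM in tumor mice and 0.130 ± 0.0858 CPM in quiescent cells. Of 10 genes of iron and heme handling, 1 of which passed only through tumors, 7 were higher and 0 lower against activated cells, and 7 were higher and 1 lower against quiescent cells. The phagosomal metal transporter SLC11A1 rose by 3.85 ± 0.66 and the ferritin light chain FTL by 0.86 ± 0.15 against quiescent cells (adjusted p = 0.000114 and 0.000125 in edgeR). CYBRD1, an iron reductase, fell by 0.83 ± 0.21 against quiescent cells (adjusted p = 0.00232 in edgeR). Of 13 genes of the uptake of dying cells, 2 of which passed only through tumors, 6 were higher and 2 lower against activated cells, and 6 were higher and 3 lower against quiescent cells, shares not far from those of all profiles. GAS6, the ligand of AXL and MERTK, rose by 3.52 ± 0.58 and the uptake receptor LRP1 by 3.94 ± 0.73 against quiescent cells (adjusted p = 8.3e-05 and 0.000241 in edgeR). The lower genes were the scavenger receptor CD36, the lipid exporter ABCA1 and the adaptor CRK against quiescent cells, at -1.3 ± 0.27, -0.71 ± 0.24 and -0.29 ± 0.08, and the integrin chain ITGAV and the engulfment protein ELMO1 against activated cells, at -0.82 ± 0.21 and -0.5 ± 0.19.

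Many markers of cell types other than macrophages, granulocytes and B cells were higher in tumors as well, and their part in the levels above was not tested. Of 41 such markers of mast, T, erythroid, platelet and stromal cells, 30 passed the minimum only through tumors. Summed levels were not higher for every type. Dendritic cell markers had a median sum of 185 CPM over the 14 tumors and 183 CPM in quiescent cells. The median sum of T cell markers was 114 CPM in MLN tumors, 80.0 CPM in spleen tumors and 78.3 CPM in quiescent cells. Of all profiles, 37.4% were higher and 30.3% lower against quiescent cells. In that comparison 6 of 9 dendritic cell markers were higher and 1 lower, with CLEC10A, a name on 2 profiles, at 4.71 ± 0.80 and XCR1 at 2.08 ± 0.40 on the log2 scale. Of 9 markers of mast cells, basophils and eosinophils 7 were higher, among them GATA2 at 4.18 ± 0.90 and CPA3, which had 0 counts in quiescent cells and averaged 1.27 ± 1.04 CPM in tumor mice (SD, n = 8). Of 11 T cell markers 10 were higher, with CD28, which plasma cells also express, at 5.63 ± 0.72 and IL7R at 3.82 ± 0.54. All 8 erythroid markers were higher, with the red cell anion exchanger SLC4A1 at 6.16 ± 1.02 and the globin HBA1, a name on 2 profiles and shared with HBA2, at 5.66 ± 1.00, and so were 4 of 5 platelet markers, with ITGA2B at 1.57 ± 0.31 and GP1BB at 0.866 ± 0.866 CPM in tumor mice and 0 in quiescent cells. All 8 stromal markers were higher, PDGFRB at 1.07 ± 0.27 and LUM at 2.12 ± 2.61 CPM in tumor mice and 0 in quiescent cells, and their sum ranged from 3.29 to 413 CPM in MLN tumors and from 3.73 to 23.2 CPM in spleen tumors. Of 7 plasma cell markers 5 were higher, with PRDM1 at 2.60 ± 0.45 and XBP1 at 2.67 ± 0.57, while all 8 B cell markers were lower, with FCER2 at -2.21 ± 0.31 and CR2 at -2.70 ± 0.43.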

How the data were processed

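Total RNA was made into stranded libraries, per the labels' protocols. The deposited table holds estimated counts, which are not whole and differ in total between libraries (13328866 to 25045814), although the file is named for TPM. Trim Galore 0.4.0, DESeq2 and build GRCm39 were used, per the submitters' processing notes. Neither the quantifier nor how human symbols were assigned is given in the sources. Of 61651 entries 21282 carried values and 17047 were above 0. Identical entries were merged into 15881 profiles, 468 with several names, and a name on several profiles took the one with the highest mean.

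Rounded counts were tested with edgeR 4.0.16 (quasi-likelihood, TMM, 2-sided) in R 4.3.3 on 12322 profiles with 0.5 CPM or more in at least 4 libraries, with Benjamini-Hochberg adjustment and a threshold of 0.05. The SE is the size of the log2 change over the root of the F statistic and is least reliable for genes near 0. For comparisons with controls the tumors of a mouse were summed, giving 8 tumor mice beside 5 activated and 4 quiescent libraries in a shared fit. The tissues were compared over 14 tumor libraries, and with a block for the mouse over 6 mice as an alternative. The design text of the series pairs tumors by mouse number. Deviations from the mean of the tissue correlated, within a mouse, at -0.11, -0.31, 0.36, -0.18, -0.43 and 0.61 for mice 1610, 1611, 1613, 1614, 1615 and 1616. DESeq2 1.42.0 and limma-trend (limma 3.58.1) were alternatives, beside other size factors, total counts, other filters, removal of immunoglobulin genes, single tissues, tumors taken as independent and each replicate left out. Genes with 1 to 3 control counts are given as ratios with exact 95% counting intervals, and those with 0 against a floor of 3 counts over the group. Both cover counting error only. They pool the counts of the 14 tumor libraries, while the adjusted p beside them is that of edgeR over tumor mice.

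The members and the further gene lists were chosen with earlier results of these data known. By rule, most members are given with each control library and the lowest, median and highest tumor of each tissue. From each further list the 2 members with the lowest adjusted p against quiescent cells are named. Promoter sequences are from RefSeq, build GRCm38.p6, and were not joined to the build of the files.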

Additional observations from a re-analysis of the deposited data

Results flagged for a closer look

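Among groups of 4 or 5 control and 7 tumor libraries with at least 1 CPM in the highest library, 101 were examined for a sample far from the others, and 4 had one; chance alone gives about 1 in 20. ADGRE1 stood at 19.9 CPM in activated library 1, far above the other activated libraries. FCGR1A stood at 1.75 CPM in the same activated library, also the highest there. APOE stood at 308 CPM in quiescent library 4, above 207 to 209 CPM in the other quiescent libraries. CSF3R stood at 1.15 CPM in quiescent library 1, below 2.80 to 2.93 CPM in the others.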

How the results depend on the processing

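Against quiescent cells, 31 to 35 of the 35 genes passed over the alternatives (19 to 23 macrophage and 12 granulocyte genes), and against activated cells 35 in each. Between MLN and spleen tumors, 0 members passed in edgeR (limma-trend and the replicate block over 6 mice also 0), and 0 with any single tumor left out, while DESeq2 called 1 member, CAMP, so that granulocyte genes lower in MLN tumors numbered 1. The change of C1QB, -0.28, reversed to 0.48 in limma-trend and to 0.33 with the mouse as a block, and ran from -0.57 to 0.31 with single tumors left out. With the 2 farthest tumors left out, the 4 relations past the threshold became 0; r of C1QB with S100A8 in MLN tumors reversed to 0.271 from -0.411, and that of C1QB between paired tumors to 0.665 from -0.0915. The cause of these shifts was not tested. The block changed no other call. Control libraries near 0 counts limit the precision of large changes.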
